A study of Homo sapiens with 9 samples.

Results

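The genes described here encode subunits of the proteasome, its activators and the chaperones that build its regulatory particle, and their RNA was measured in Huh7 cells treated with PGG. Members were the probe sets annotated with exactly 1 gene symbol that begins with PSMA, PSMB, PSMC, PSMD or PSME and ends in a number, without PSMB8 and PSMB9. The rule used names only and no measured value. It found 67 probe sets of 35 genes, among 54613 probe sets and 19775 genes tested, and 20 of the 35 genes had more than 1 probe set. PSMA6, PSMB11, PSMC5, PSMD7, PSMD13 and PSME2, which the rule would also take by name, were not analysed here. For each gene the values are those of its brightest probe set, by the mean of all 9 arrays.

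The proteasome is the protease of the cytosol and nucleus that degrades proteins tagged with ubiquitin chains. Its 20S core is a barrel of alpha rings, which gate the entry, and beta rings, which hold the catalytic sites, and a 19S regulatory particle at its ends binds, unfolds and deubiquitylates the substrate. Other activators, PA28 and PA200, can take the place of the 19S particle. In liver cancer cells, as in other growing cells, the complex removes misfolded proteins and short-lived regulators of the cell cycle.

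Huh7 is an established human hepatocellular carcinoma cell line, and PGG is a plant polyphenol in which glucose carries galloyl groups. The arrays held 3 groups of 3, all of Huh7 cells grown in DMEM. The groups were PGG for 48 hours and PGG for 6 hours, both at 0.1 mg/mL, and PBS, the solvent of PGG, which the sample titles and the study's methods place at 48 hours and the label descriptions at 0 hours. Arrays of a group are titled biological replicates and described in the methods as triplicates, without saying whether these were separate cultures. PBS was not measured at 6 hours in the arrays used here, and the groups compared at 6 hours therefore also differ in how long they were cultured. Levels are RMA values on the log2 scale, where a difference of 1 is a 2-fold change, and in bulk RNA a change per cell and a change in the mix of cells cannot be told apart.

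Of 9 liver and hepatoma markers measured, 4 rose and 4 fell at 48 hours against PBS, with log2 differences of -1.99 for APOB to 1.00 for TTR, and 3 rose and 1 fell at 6 hours. Of all genes at or above the median level 36.9% rose and 38% fell at 48 hours, and 29% rose and 26.9% fell at 6 hours. Albumin (ALB), which did not pass at either time, had log2 levels of 13.44 to 13.46 in PGG at 48 hours, 13.42 to 13.53 in PGG at 6 hours and 13.53 to 13.54 in PBS, and the summed level of the list was 15.54 to 15.58, 15.65 to 15.68 and 15.60 to 15.66 in the same order. Of 4 immune markers, none rose. CD14 fell at 48 hours (-1.37, adjusted p = 4.8e-07 from limma) and at 6 hours (-0.81, adjusted p = 1.2e-04), CD3E fell at 48 hours (-0.30, adjusted p = 0.0012), and PTPRC lay between 3.27 and 3.53 on all arrays. The summed level of the list, set mostly by LYZ, was 11.83 to 12.10 in PGG at 48 hours, 12.03 to 12.29 in PGG at 6 hours and 12.15 to 12.23 in PBS. Summed levels were 8.21 to 8.27, 7.85 to 7.99 and 8.06 to 8.11 in that order for 5 fibroblast markers, of which LUM rose at 48 hours (log2 difference 3.27 from PBS, adjusted p = 6.3e-10 from limma) and COL1A1 and COL3A1 fell (-0.28 and -0.32). For 4 endothelial markers they were 6.99 to 7.32, 6.73 to 6.89 and 6.79 to 6.86, and PECAM1 alone rose at 48 hours, by 0.46 (adjusted p = 0.004 from limma). Arrays of a group correlated at 0.993 to 0.998. As a sign of RNA quality, the 3′ minus 5′ control signal of ACTB was 2.14, 4.03 and 2.67 in PGG at 48 hours, 1.13 to 1.23 in PGG at 6 hours and 0.96 to 1.57 in PBS, and that of GAPDH was 1.83 on the 48-hour array of replicate 2 and 0.13 to 0.39 on the other 8 arrays. Its part in the results below was not tested. Without that replicate 2 array 8 proteasome genes were higher and 18 lower at 48 hours against PBS, where PSMB1 was lost and PSMD3 gained among the higher ones, and the ACTB values of the 2 arrays left, 2.14 and 2.67, were still above those in PBS.

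Upstream sequences of 6 members that held motif matches are shown as examples. PSMD11, which fell more than PSMD14 at 48 hours (-1.42 against -1.21), held no match in the 250 bases and is not shown. Neither is PSMC1, which had the next largest rise at 6 hours after PSMD3 and also held none. PSME3 and PSMD14 were among the largest falls at 48 hours, PSMD9 and PSME1 were the largest rises at 48 hours, PSMD3 was the largest rise at 6 hours, and PSMB3 held all 3 motifs searched. Each line gives the 250 bases before the annotated start, 5′ to 3′ on the gene's own strand, from RefSeq on GRCh38.p14. The regions are chr17:42833147-42833396 for PSME3, chr2:161308175-161308424 for PSMD14, chr12:121888540-121888789 for PSMD9, chr14:24135944-24136193 for PSME1, chr17:39980557-39980806 for PSMD3 and chr17:38752491-38752740 for PSMB3, all on the plus strand. Capitals mark matches, on either strand, to TGACNNNGC (the core of the antioxidant response element), CCAAT (the CCAAT box) or CACGTG (the E-box bound by MYC and its relatives).
PSME3: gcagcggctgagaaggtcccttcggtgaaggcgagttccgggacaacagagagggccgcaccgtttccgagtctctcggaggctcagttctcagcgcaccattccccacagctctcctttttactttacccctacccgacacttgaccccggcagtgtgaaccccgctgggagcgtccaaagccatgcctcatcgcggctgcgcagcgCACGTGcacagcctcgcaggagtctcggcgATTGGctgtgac
PSMD14: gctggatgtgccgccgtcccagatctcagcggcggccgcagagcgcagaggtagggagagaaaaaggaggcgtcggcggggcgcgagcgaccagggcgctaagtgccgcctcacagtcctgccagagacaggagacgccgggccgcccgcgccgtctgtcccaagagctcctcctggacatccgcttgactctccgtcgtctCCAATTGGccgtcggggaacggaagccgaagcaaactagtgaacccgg
PSMD9: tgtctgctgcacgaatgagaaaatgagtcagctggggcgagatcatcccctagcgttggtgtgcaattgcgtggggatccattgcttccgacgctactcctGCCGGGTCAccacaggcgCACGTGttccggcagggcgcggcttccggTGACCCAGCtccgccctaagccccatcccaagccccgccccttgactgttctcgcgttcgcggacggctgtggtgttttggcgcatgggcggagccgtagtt
PSME1: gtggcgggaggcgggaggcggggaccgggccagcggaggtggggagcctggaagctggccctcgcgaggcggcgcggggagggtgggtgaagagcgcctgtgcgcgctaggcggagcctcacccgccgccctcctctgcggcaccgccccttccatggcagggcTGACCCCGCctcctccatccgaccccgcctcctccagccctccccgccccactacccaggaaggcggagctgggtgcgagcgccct
PSMD3: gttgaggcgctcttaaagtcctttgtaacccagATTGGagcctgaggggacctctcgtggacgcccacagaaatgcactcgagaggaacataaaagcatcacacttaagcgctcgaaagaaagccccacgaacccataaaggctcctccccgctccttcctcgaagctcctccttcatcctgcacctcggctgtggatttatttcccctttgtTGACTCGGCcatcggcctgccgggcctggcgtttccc
PSMB3: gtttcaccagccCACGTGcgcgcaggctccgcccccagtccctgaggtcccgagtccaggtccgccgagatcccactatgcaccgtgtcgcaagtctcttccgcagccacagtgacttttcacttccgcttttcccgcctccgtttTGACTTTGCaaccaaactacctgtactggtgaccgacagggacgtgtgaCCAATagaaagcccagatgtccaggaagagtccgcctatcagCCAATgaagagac

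Counted from the annotated start to the first base of the match, PSME3 held an E-box at -42 and a CCAAT box at -12. In PSMD14 a pair of CCAAT matches on opposite strands, at -48 and -45, overlapped. PSMD9 held TGACNNNGC at -149 and -102 with an E-box between them at -131, and PSME1 held TGACNNNGC at -86. PSMD3 had a CCAAT box at -217 and TGACNNNGC at -37, with a further match at 34 beyond the start. PSMB3 had an E-box at -238, TGACNNNGC at -104 and CCAAT boxes at -55 and -13. In windows from 250 bases before to 50 after the start, 30 of the 35 members had a sequence, and the shares that follow are of these 30, beside the shares of 27305 genes with a window. TGACNNNGC was found in 10 members (33.3%, against 16.1% of all genes), CCAAT in 15 (50%, against 39.7%) and CACGTG in 3 (10%, against 8.77%). A match is a string of letters and says nothing about whether a factor bound there.

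Across the 35 genes, 8 were higher and 18 lower in PGG at 48 hours than in PBS at an adjusted p under 0.05 from limma, and 9 did not pass. Of all genes 23.9% were higher and 24.3% lower in that comparison, and of the genes at or above the median level, where 34 of the 35 members lay, 36.9% were higher and 38% lower. The share of members lower, 51.4%, was above both backgrounds. The median log2 difference of the members was -0.23, beside -0.02 over all genes. Every PGG 48-hour array lay below every PBS array for 20 members and above for 9, beside 26.5% and 25.3% of all genes.

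At 6 hours most members past the test were higher. Of the 35 genes 17 were higher and 2 lower in PGG at 6 hours than in PBS, and 16 did not pass, against 17.2% of all genes higher and 16.9% lower, or 29% and 26.9% of the genes at or above the median level. The median log2 difference was 0.21, beside 0.01 over all genes. All 3 PGG 6-hour arrays lay above all PBS arrays for 21 members and below for 2, beside 23% and 22.1% of all genes. Both PGG groups were set against the same 3 PBS arrays.

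Between the PGG groups, 7 members were higher and 24 lower at 48 hours than at 6 hours, and 4 did not pass. The background was 23.6% higher and 23.4% lower, or 36.6% and 37.4% of the genes at or above the median level. The median log2 difference of the members was -0.49, against -0.01 for all genes. The 48-hour arrays lay below every 6-hour array for 25 members and above for 7, beside 26.7% and 25.8% of all genes. Set against the mean of the PBS arrays, the median member lay between -0.24 and -0.21 on the PGG 48-hour arrays, between 0.16 and 0.18 on the PGG 6-hour arrays and between -0.02 and 0.02 on the PBS arrays.

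**Figure D1:**
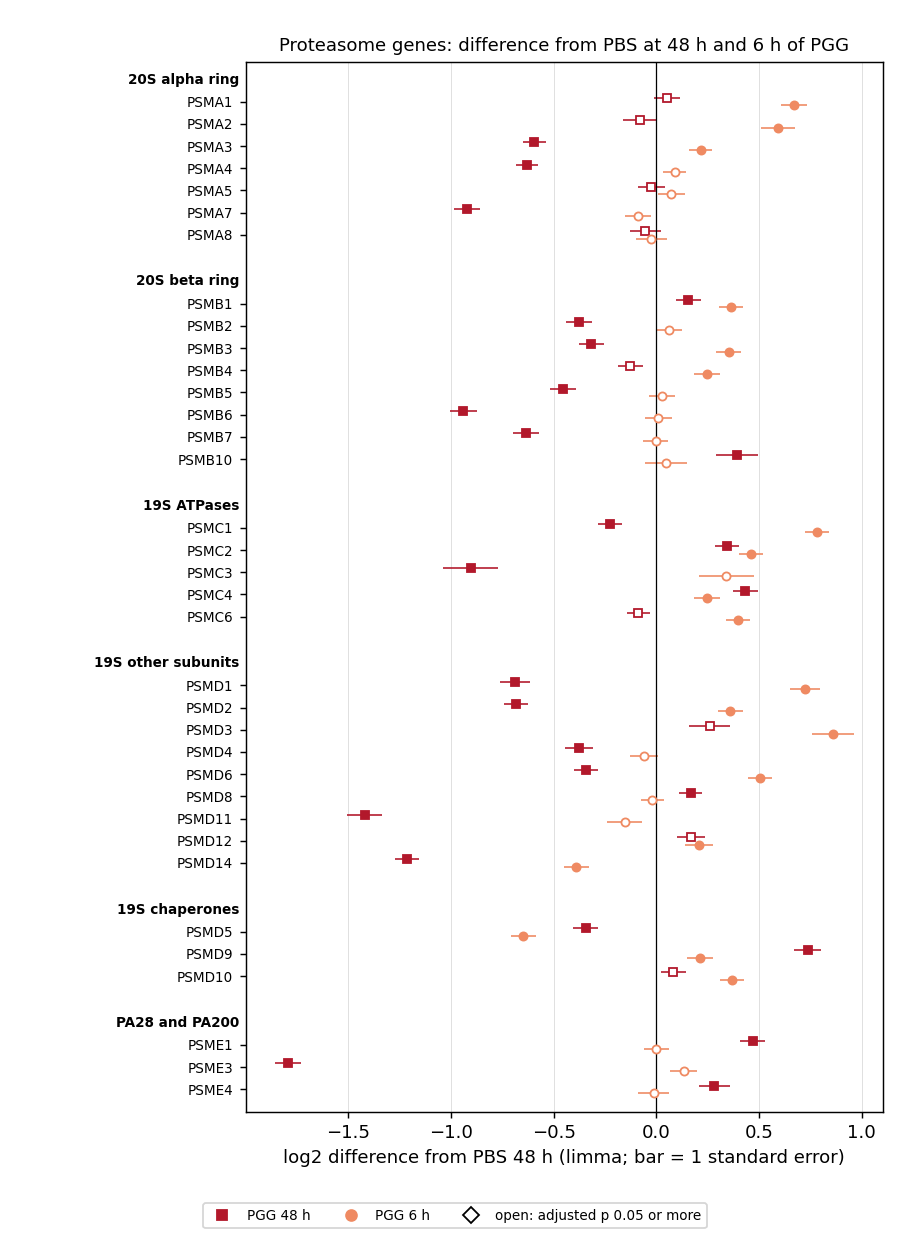
Log2 difference from PBS of each of the 35 genes, grouped by part of the proteasome, at 48 hours of PGG (squares) and 6 hours of PGG (circles), with bars of 1 standard error from limma and open marks where the adjusted p was 0.05 or more. At 48 hours most marks lie left of 0, down to -1.79 for PSME3, and at 6 hours most lie right of 0, up to 0.86 for PSMD3.

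**Figure D2:**
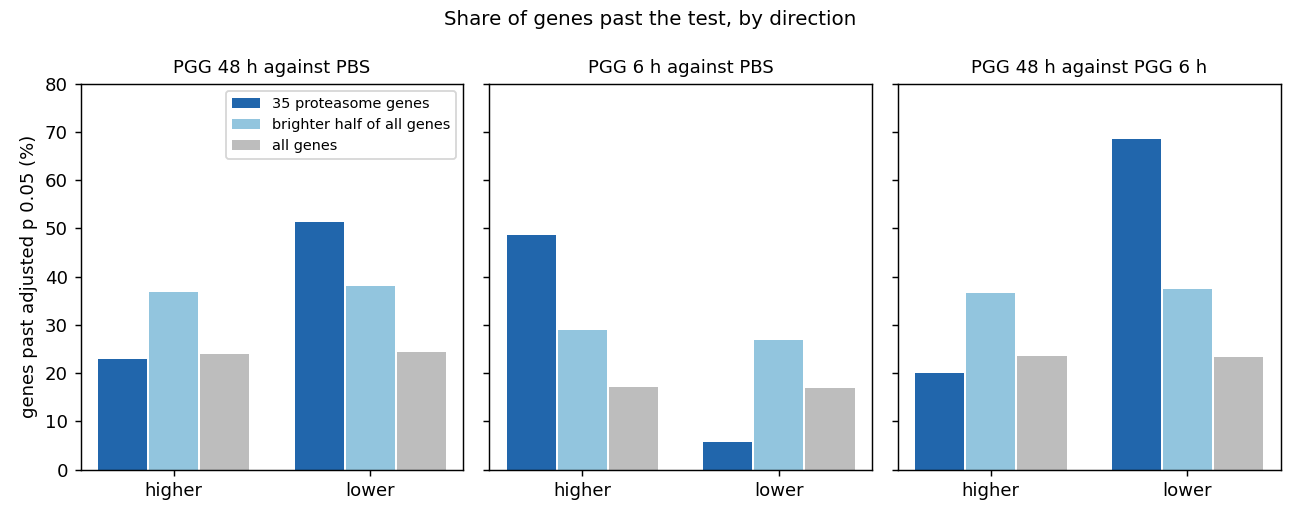
Percent of genes called higher and lower at an adjusted p under 0.05 in each comparison, for the 35 proteasome genes, the genes at or above the median level and all genes. Lower calls took 51.4% of the proteasome genes at 48 hours against PBS and 68.6% at 48 hours against 6 hours, while higher calls took 48.6% at 6 hours against PBS.

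The alpha ring was lower or not past the test at 48 hours and higher or not past the test at 6 hours. Of its 7 measured genes, 3 fell and none rose at 48 hours against PBS, 3 rose and none fell at 6 hours, and 5 were lower at 48 hours than at 6 hours. The share lower at 48 hours, 42.9%, was near the 38% of all genes at or above the median level. The share higher at 6 hours was 42.9%, beside 29%, and the share lower between the times 71.4%, beside 37.4%. PSMA1, a structural subunit of the ring, had levels of 11.11, 11.2 and 11.14 in PGG at 48 hours, 11.76, 11.74 and 11.8 in PGG at 6 hours and 11.04, 11.19 and 11.06 in PBS. The 6-hour arrays stood above the other 6, which overlapped. PSMA1 rose by 0.67 ± 0.063 (SE) at 6 hours (adjusted p = 5.7e-06 from limma), and its difference from PBS was 0.05 at 48 hours (adjusted p = 0.54). PSMA2 rose by 0.59 at 6 hours (adjusted p = 1.3e-04 from limma), and its difference of -0.08 at 48 hours did not pass. Its second, dimmer probe set fell by 0.79 at 48 hours, so the probe sets of PSMA2 were not alike at that time.

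PSMA3, PSMA4 and PSMA7 fell at 48 hours by 0.59, 0.63 and 0.92 (adjusted p = 1.8e-06, 9.9e-07 and 1.1e-07 from limma), with all 48-hour arrays below all PBS arrays. Of these only PSMA3 also rose at 6 hours, by 0.22 (adjusted p = 0.0091 from limma), a call that was lost when its 3 probe sets were averaged (0.07, adjusted p = 0.44). PSMA5 did not pass in any comparison by its brighter probe set, and a second probe set near the bottom of the scale, at 3.31 to 3.92 in PGG at 48 hours, fell by 1.53. PSMA8, the testis form of an alpha subunit, had levels of 2.24 to 2.47 on all arrays, below the median gene, and did not pass.

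In the beta ring the 3 constitutive catalytic subunits and PSMB2 and PSMB3 fell at 48 hours, while PSMB1 and the interferon-inducible subunit PSMB10 rose. Of 8 measured genes, 2 rose and 5 fell at 48 hours against PBS, 3 rose and none fell at 6 hours, and 1 was higher and 7 were lower at 48 hours than at 6 hours. Lower shares were 62.5% at 48 hours, beside 38% of all genes at or above the median level, and 87.5% between the times, beside 37.4%. The higher share at 6 hours was 37.5%, beside 29%. PSMB6, which carries the caspase-like site, had levels of 10.07, 10.24 and 10.13 in PGG at 48 hours, 11.06, 11.13 and 11.1 in PGG at 6 hours and 11.03, 11.08 and 11.15 in PBS. The 48-hour arrays were the low ones, and the 6-hour and PBS arrays overlapped. PSMB6 fell by 0.94 ± 0.066 (SE) at 48 hours (adjusted p = 1.3e-07 from limma) and differed from PBS by 0.01 at 6 hours (adjusted p = 0.93).

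PSMB7, which carries the trypsin-like site, had levels of 11.31, 11.42 and 11.29 in PGG at 48 hours, 11.92, 12 and 11.99 in PGG at 6 hours and 12.02, 11.95 and 11.95 in PBS. Its pattern over the arrays was that of PSMB6, and it fell by 0.63 ± 0.062 (SE) at 48 hours (adjusted p = 2.6e-06 from limma). A dimmer probe set of PSMB7, at 6.28 to 6.66 in PGG at 48 hours, differed from PBS by 0.10 there (adjusted p = 0.49). That probe set rose by 0.40 at 6 hours (adjusted p = 0.014 from limma). PSMB5, the subunit with the chymotrypsin-like site that bortezomib binds, had 10.99, 11.13 and 11.02 in PGG at 48 hours, 11.49, 11.54 and 11.55 in PGG at 6 hours and 11.56, 11.46 and 11.48 in PBS. It fell by 0.45 ± 0.063 (SE) at 48 hours (adjusted p = 5.7e-05 from limma), again with the 48-hour arrays alone below the others. At 6 hours PSMB5 and PSMB7 differed from PBS by 0.03 and -0.00 (adjusted p = 0.81 and 0.98).

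PSMB10, which replaces PSMB7 in the immunoproteasome, ran the other way. Its levels were 8.24, 8.02 and 8.42 in PGG at 48 hours, 7.74, 7.98 and 7.92 in PGG at 6 hours and 7.75, 7.92 and 7.83 in PBS, and it was dimmer than the constitutive subunits, although levels of different probe sets cannot be ranked. All 48-hour arrays lay above the other 6. PSMB10 rose by 0.39 ± 0.101 (SE) against PBS (adjusted p = 0.006 from limma) and by 0.35 against PGG at 6 hours (adjusted p = 0.013 from limma). Neither rise passed by the test of the study's methods after Benjamini-Hochberg adjustment (adjusted p = 0.081 and 0.13). In limma the rise against 6 hours did not pass without replicate 1 of PGG at 6 hours (0.28, adjusted p = 0.065) or replicate 3 of PGG at 48 hours (0.25, adjusted p = 0.06).

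Of the beta subunits without a catalytic site, PSMB2 and PSMB3 fell at 48 hours by 0.38 and 0.32 (adjusted p = 2.8e-04 and 7.5e-04 from limma). PSMB3 and PSMB4 rose at 6 hours by 0.35 and 0.25, and their differences between 48 and 6 hours were -0.67 and -0.37. At 48 hours against PBS, PSMB4 differed by -0.13 on its brightest probe set and did not pass (adjusted p = 0.11). That difference passed under a trended and robust limma variance model (adjusted p = 0.025). Another bright probe set of PSMB4 differed by -0.09 (adjusted p = 0.34). A dimmer one, at 6.23 to 6.46 in PGG at 48 hours, fell (-0.89, adjusted p = 4e-05 from limma). Averaging the probe sets of PSMB4 gave a fall that passed in limma (-0.37, adjusted p = 5.9e-05). PSMB1 rose at 6 hours by 0.36 (adjusted p = 4.1e-04 from limma). Its rise of 0.16 at 48 hours (adjusted p = 0.045 from limma) was near the threshold and missed it without any 1 of 8 arrays, at adjusted p between 0.058 and 0.12.

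The 19S base holds the ATPase ring that unfolds substrates, and 5 of its genes were measured. At 6 hours 4 rose and none fell, at 48 hours 2 rose and 2 fell, and between the times 1 was higher and 3 were lower at 48 hours. The shares at 48 hours, 40% and 40%, were near the 36.9% and 38% of all genes at or above the median level. The share higher at 6 hours was 80%, beside 29%, and the share lower between the times 60%, beside 37.4%. PSMC1 had levels of 9.92, 9.91 and 9.94 in PGG at 48 hours, 10.93, 10.89 and 10.98 in PGG at 6 hours and 10.17, 10.19 and 10.09 in PBS. None of the 3 groups overlapped, with 6 hours highest and 48 hours lowest. PSMC1 rose by 0.78 ± 0.059 (SE) at 6 hours (adjusted p = 9.1e-07 from limma) and fell by 0.23 ± 0.059 at 48 hours (adjusted p = 0.0064 from limma). PSMC3 had 8.84, 8.18 and 8.71 in PGG at 48 hours, 9.76, 9.85 and 9.85 in PGG at 6 hours and 9.55, 9.41 and 9.48 in PBS. It had the same order of groups with a wider spread at 48 hours, where replicate 2 was the lowest array. It fell by 0.90 ± 0.134 (SE) at 48 hours (adjusted p = 1.0e-04 from limma), and its difference of 0.34 at 6 hours did not pass with all 9 arrays (adjusted p = 0.074) but passed without replicate 2 of PGG at 48 hours (adjusted p = 0.0014) or without replicate 1 of that group (adjusted p = 0.04).

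PSMC4 rose at both times, with levels of 10.28, 10.36 and 10.32 in PGG at 48 hours, 10.07, 10.15 and 10.18 in PGG at 6 hours and 9.95, 9.86 and 9.85 in PBS. The groups did not overlap, with 48 hours highest and PBS lowest. The rise from limma was 0.43 ± 0.061 (SE) at 48 hours (adjusted p = 7.0e-05) and 0.25 ± 0.061 at 6 hours (adjusted p = 0.0076). The difference of 0.19 between the times (adjusted p = 0.025) missed the threshold without any 1 of 4 arrays, at adjusted p of 0.053 to 0.1. PSMC6 rose by 0.40 at 6 hours and differed by -0.09 at 48 hours (adjusted p = 0.26). PSMC2 rose by 0.46 at 6 hours on its brightest probe set and by 0.34 at 48 hours, but a second probe set of PSMC2 fell at 48 hours (-0.39) but rose at 6 hours (0.41). Its direction at 48 hours thus differed between probe sets, and its direction at 6 hours did not.

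Most of the other 19S subunits were lower at 48 hours. Of 9 measured genes 1 rose and 6 fell at 48 hours against PBS, 5 rose and 1 fell at 6 hours, and 1 was higher and 7 were lower at 48 hours than at 6 hours. Lower shares were 66.7% at 48 hours, beside 38% of all genes at or above the median level, and 77.8% between the times, beside 37.4%. The higher share at 6 hours was 55.6%, beside 29%. PSMD11, a lid subunit that ties the 19S particle to the core, had levels of 9.69, 9.57 and 9.62 in PGG at 48 hours, 10.94, 10.89 and 10.85 in PGG at 6 hours and 11.25, 10.95 and 10.94 in PBS. The 48-hour arrays were more than 1 log2 unit below the others. PSMD11 fell by 1.42 ± 0.085 (SE) at 48 hours (adjusted p = 3.1e-08 from limma) and its difference at 6 hours was -0.15 (adjusted p = 0.2).

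PSMD14, the deubiquitylase of the lid, fell at both times. Its levels were 10.78, 10.86 and 10.77 in PGG at 48 hours, 11.62, 11.63 and 11.63 in PGG at 6 hours and 12.09, 11.99 and 11.97 in PBS, so that the groups stood in 3 separate steps. The fall from limma was -1.21 ± 0.060 (SE) at 48 hours (adjusted p = 6.7e-09) and -0.39 ± 0.060 at 6 hours (adjusted p = 2.8e-04). Together with the chaperone PSMD5 it made up the 2 members that fell at 6 hours.

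PSMD1 and PSMD2, the large scaffolds of the base on which ubiquitin receptors dock, moved in opposite directions at the 2 times. PSMD1 had 9.16, 9.25 and 9.1 in PGG at 48 hours, 10.55, 10.58 and 10.61 in PGG at 6 hours and 9.99, 9.76 and 9.82 in PBS. No group overlapped another, and PBS lay between the PGG groups. PSMD1 fell by 0.69 ± 0.073 (SE) at 48 hours (adjusted p = 5.4e-06 from limma) and rose by 0.72 ± 0.073 at 6 hours (adjusted p = 9.5e-06 from limma), which made the difference between the times -1.41 (adjusted p = 1.2e-08). PSMD2 fell at 48 hours (-0.68) but rose at 6 hours (0.36), and PSMD6, a lid subunit, fell at 48 hours (-0.34) but rose at 6 hours (0.50) on its brighter probe set. The other probe set of PSMD6, at 3.3 to 3.65 in PGG at 48 hours, rose by 0.45 there.

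PSMD3, a lid subunit, had the largest rise at 6 hours. It had levels of 8.69, 8.28 and 8.6 in PGG at 48 hours, 9.1, 9.19 and 9.08 in PGG at 6 hours and 8.13, 8.32 and 8.34 in PBS. The 6-hour arrays were above the rest, and 1 array of PGG at 48 hours, replicate 2, lay within the PBS range. PSMD3 rose by 0.86 ± 0.101 (SE) at 6 hours (adjusted p = 3.4e-05 from limma), and its difference at 48 hours, 0.26, did not pass (adjusted p = 0.052) but passed without that replicate (0.38, adjusted p = 0.0018). PSMD4, the ubiquitin receptor of the base, fell by 0.38 at 48 hours on its brightest probe set and by 0.39 and 0.22 on others. The IDs of these probe sets mark them as able to bind other transcripts. Its remaining probe set, much dimmer at 5.38 to 5.73 in PGG at 48 hours, differed by -0.10 (adjusted p = 0.43). PSMD8 rose by 0.17 at 48 hours (adjusted p = 0.026 from limma), and this call was lost without replicate 1 or 3 of PBS or of PGG at 48 hours, at adjusted p of 0.057 to 0.062. PSMD12 rose by 0.21 at 6 hours (adjusted p = 0.033 from limma), which was lost without replicate 2 or 3 of PBS or replicate 1 or 3 of PGG at 6 hours, at adjusted p of 0.067 to 0.12. At 48 hours PSMD12 differed by 0.17 on its brighter probe set (adjusted p = 0.06; 0.044 without replicate 1 of PBS), and its other probe set fell by 0.58.

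The 3 chaperones that assemble the ATPase ring went separate ways. PSMD9 rose at both times, with levels of 9.59, 9.72 and 9.74 in PGG at 48 hours, 9.13, 9.17 and 9.18 in PGG at 6 hours and 8.98, 8.87 and 8.99 in PBS. The groups did not overlap. The rise was 0.74 ± 0.065 (SE) at 48 hours (adjusted p = 1.0e-06 from limma), the largest of any member at that time, and 0.21 ± 0.065 at 6 hours (adjusted p = 0.024 from limma), which was lost without replicate 2 of PBS or replicate 2 or 3 of PGG at 6 hours (adjusted p = 0.069 to 0.092). A dimmer probe set of PSMD9, at 5.34 to 5.74 in PGG at 48 hours, differed from PBS by -0.22 (adjusted p = 0.13) and was lower at 48 hours than at 6 hours by -0.36 (adjusted p = 0.019).

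PSMD5 fell at both times and further at 6 hours. Its levels were 9.9, 9.97 and 9.9 in PGG at 48 hours, 9.58, 9.66 and 9.62 in PGG at 6 hours and 10.2, 10.31 and 10.29 in PBS, in 3 groups that did not overlap. The fall from limma was -0.34 ± 0.060 (SE) at 48 hours (adjusted p = 4.0e-04) and -0.65 ± 0.060 at 6 hours (adjusted p = 5.2e-06). PSMD10, also known as gankyrin and often raised in hepatocellular carcinoma, rose by 0.37 at 6 hours (adjusted p = 3.7e-04 from limma) and differed by 0.08 at 48 hours (adjusted p = 0.29).

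The activators outside the 19S particle held the largest fall of all members and some of the few rises at 48 hours. PSME3, the nuclear PA28 gamma subunit that opens the core without ubiquitin, had levels of 7.66, 7.84 and 7.8 in PGG at 48 hours, 9.65, 9.71 and 9.72 in PGG at 6 hours and 9.53, 9.58 and 9.57 in PBS. The 48-hour arrays were far below the other 6. PSME3 fell by 1.79 ± 0.064 (SE) at 48 hours (adjusted p = 5.4e-10 from limma), and its difference at 6 hours was 0.13 (adjusted p = 0.15). All 4 probe sets of PSME3 fell at 48 hours, with log2 differences of -1.71, -1.79, -2.30 and -2.31. They were the only probe sets of members, other than the dim PSMA5 probe set, past an adjusted p of 0.005 and a log2 difference of 1.5, where 1.85% of all probe sets were lower and 2.25% higher. Between 48 and 6 hours 5 member probe sets passed these cut-offs, all lower, 4 of PSME3 and the dim probe set of PSMA5, beside 1.27% of all probe sets lower and 1.75% higher. At 6 hours no member probe set passed these cut-offs, against 0.298% of all probe sets higher and 0.434% lower. These cut-offs take the 1.5 of the study's methods as a log2 difference and apply limma in place of its own test. Its figure legend words the 1.5 as a fold, and with 1.5 taken as a ratio, a reading added after the values were seen, 21 member probe sets were lower and 2 higher at 48 hours against PBS (10.1% and 10.3% of all probe sets), 2 lower and 9 higher at 6 hours (4.67% and 4.07%), and 33 lower and 0 higher at 48 hours against 6 hours (8.81% and 9.53%).

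PSME1, the interferon-inducible PA28 alpha subunit, rose at 48 hours only. It had 11.55, 11.65 and 11.61 in PGG at 48 hours, 11.1, 11.12 and 11.18 in PGG at 6 hours and 11.18, 11.14 and 11.08 in PBS. The 48-hour arrays lay above the others, which overlapped. The rise was 0.47 ± 0.060 (SE) against PBS (adjusted p = 3.0e-05 from limma) and 0.47 against 6 hours (adjusted p = 3.1e-05 from limma), beside a difference of 0.00 at 6 hours (adjusted p = 1.0). PSME4, which encodes PA200, had 10.41, 10.67 and 10.49 in PGG at 48 hours, 10.17, 10.27 and 10.24 in PGG at 6 hours and 10.28, 10.2 and 10.24 in PBS on its brightest probe set. That probe set rose by 0.28 ± 0.074 (SE) at 48 hours (adjusted p = 0.0065 from limma) and differed by -0.01 at 6 hours. Another probe set of PSME4 fell at both times (-0.69 at 48 hours, -0.92 at 6 hours), so no single direction holds for PSME4 against PBS. The rise of the brightest probe set did not pass by the test of the study's methods (adjusted p = 0.06).

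Counted by probe set over the whole table, 9 of the 67 were higher, 34 lower and 24 not past an adjusted p of 0.05 at 48 hours against PBS, beside 18.8% of all probe sets higher and 20.2% lower. At 6 hours 28 were higher, 3 lower and 36 not past it, beside 12.2% and 12.5%. Between the times 9 were higher, 46 lower and 12 not past it at 48 hours, beside 18% and 18.4%. Opposite calls within 1 gene were found at 48 hours against PBS for PSMC2, PSMD6 and PSME4 and between the times for PSMB1 and PSMD9, and for no gene at 6 hours. For PSMB1 the higher call came from a dim probe set, at 4.24 to 4.66 in PGG at 48 hours, and its bright probe sets were lower. Probe sets whose IDs end in _s_at (22 of the 67) or _x_at (7 of the 67) may bind several transcripts or other genes.

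The promoter motifs were also set beside the calls. Of the 14 members with a window that fell at 48 hours 9 held CCAAT (64.3%) and 4 held TGACNNNGC (28.6%), and of the 7 that rose 2 held CCAAT (28.6%) and 4 held TGACNNNGC (57.1%). Of the 9 not called at 48 hours 4 held CCAAT (44.4%) and 2 held TGACNNNGC (22.2%). The shares over all genes with a window were 39.7% for CCAAT and 16.1% for TGACNNNGC. Of the 16 with a window that rose at 6 hours, 7 held CCAAT (43.8%) and 6 held TGACNNNGC (37.5%). PSMC4, PSMD9, PSME1 and PSME4 were the members that held TGACNNNGC and rose at 48 hours. In PSMC4 the match began at 28, beyond the start. These counts are small and carry no test.

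Genes that build the proteasome or add small subunits to it, listed by function beside the members, were 2 higher and 4 lower of 8 at 48 hours and 4 higher and none lower at 6 hours. These are 25% and 50% at 48 hours, beside 36.9% and 38% of all genes at or above the median level. At 6 hours 50% were higher, beside 29%. PSMG1, whose product starts the alpha ring, had levels of 8.63, 8.68 and 8.75 in PGG at 48 hours, 10.24, 10.19 and 10.19 in PGG at 6 hours and 10.25, 10.33 and 10.17 in PBS, and the 48-hour arrays alone were low. It fell by 1.56 at 48 hours (adjusted p = 1.5e-09 from limma). PSMG3 and PSMG4, which work as a pair in the same step, fell by 0.58 and 0.87 at 48 hours, PSMG4 on its brightest probe set. At that time a dimmer probe set of PSMG4 rose by 0.52 (adjusted p = 7.7e-05 from limma), another fell by 0.35, and the rest did not pass. PSMG2, the partner of PSMG1, rose at both times (0.35 at 48 hours, 0.24 at 6 hours). POMP, which matures the core, rose by 0.42 at 6 hours and differed by 0.03 at 48 hours (adjusted p = 0.75). ADRM1, the ubiquitin receptor that docks on PSMD1, fell by 1.22 at 48 hours (adjusted p = 3.8e-08 from limma), and SEM1, a small lid subunit, rose at both times (0.60 at 48 hours, 0.59 at 6 hours).

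Of 12 measured genes whose products associate with the proteasome, 4 rose and 4 fell at 48 hours and 4 rose and 3 fell at 6 hours. These shares, 33.3% and 33.3%, then 33.3% and 25%, were near those of all genes at or above the median level. There 36.9% rose and 38% fell at 48 hours, and 29% rose and 26.9% fell at 6 hours. The shuttle factor gene UBQLN1 fell at both times (-1.07 at 48 hours, -0.60 at 6 hours) on its brightest probe set, and ECPAS, an adaptor of the particle, fell at both times (-0.72 at 48 hours, -0.71 at 6 hours). UBQLN2 rose at both times (0.81 at 48 hours, 0.87 at 6 hours) on its brighter probe set, and its dimmer probe set fell by 0.42 at 48 hours. USP14, a deubiquitylase of the 19S particle, rose by 0.25 at 6 hours and differed by 0.10 at 48 hours (adjusted p = 0.22), where its other probe sets fell by 0.32 and 0.66.

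NFE2L1 encodes NRF1, the factor that raises proteasome genes when proteasome activity is short, and it moved opposite to the median member. Its levels were 10.65, 10.8 and 10.72 in PGG at 48 hours, 9.41, 9.45 and 9.34 in PGG at 6 hours and 9.9, 10.06 and 9.98 in PBS, in groups that did not overlap. NFE2L1 rose by 0.74 at 48 hours (adjusted p = 1.4e-06 from limma) and fell by 0.58 at 6 hours (adjusted p = 3.3e-05 from limma), and its 3 probe sets had the same calls. Of 7 measured genes of the NRF1 route and its partners 4 rose and 1 fell at 48 hours, and 1 rose and 5 fell at 6 hours. The share that rose at 48 hours was 57.1%, beside 36.9% of all genes at or above the median level. The share that fell at 6 hours was 71.4%, beside 26.9%. MAFF, a small MAF partner, rose by 1.68 at 48 hours (adjusted p = 5.3e-10 from limma). Its difference of -0.14 at 6 hours did not pass (adjusted p = 0.11). BACH1, which competes for small MAF proteins, rose at 48 hours (1.02) but fell at 6 hours (-0.40) on its brightest probe set. The dimmer probe sets of BACH1 did not pass at either time. On their brightest probe sets MAFG and NFE2L2 fell at 6 hours (-0.81 and -0.45). Neither passed at 48 hours (0.02 and 0.08, adjusted p = 0.91 and 0.39). Of the 7 genes only VCP, the segregase that draws NRF1 out of the membrane, fell at 48 hours (-0.35) and rose at 6 hours (0.85).

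Of 5 measured genes for ubiquitin, its activating enzymes and the cofactors of VCP, 2 rose and 3 fell at 48 hours and 2 rose and 1 fell at 6 hours. These are 40% and 60%, beside 36.9% and 38% of all genes at or above the median level, and 40% and 20%, beside 29% and 26.9%. UBA1, the main ubiquitin-activating enzyme, fell by 0.64 at 48 hours (adjusted p = 2.2e-06 from limma), while UBA6, the alternative activating enzyme, rose by 0.72 on its brightest probe set (adjusted p = 8.6e-07 from limma). Other probe sets of UBA6 rose by 0.34 and 0.42, a dim one, at a mean of 4.87, fell by 0.48, and the rest did not pass. UFD1, a VCP cofactor, fell at 48 hours (-0.24) but rose at 6 hours (0.67), and its partner NPLOC4 fell by 0.67 at 48 hours. Their difference between the times was -0.91 for UFD1 and -0.75 for NPLOC4.

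**Figure D3:**
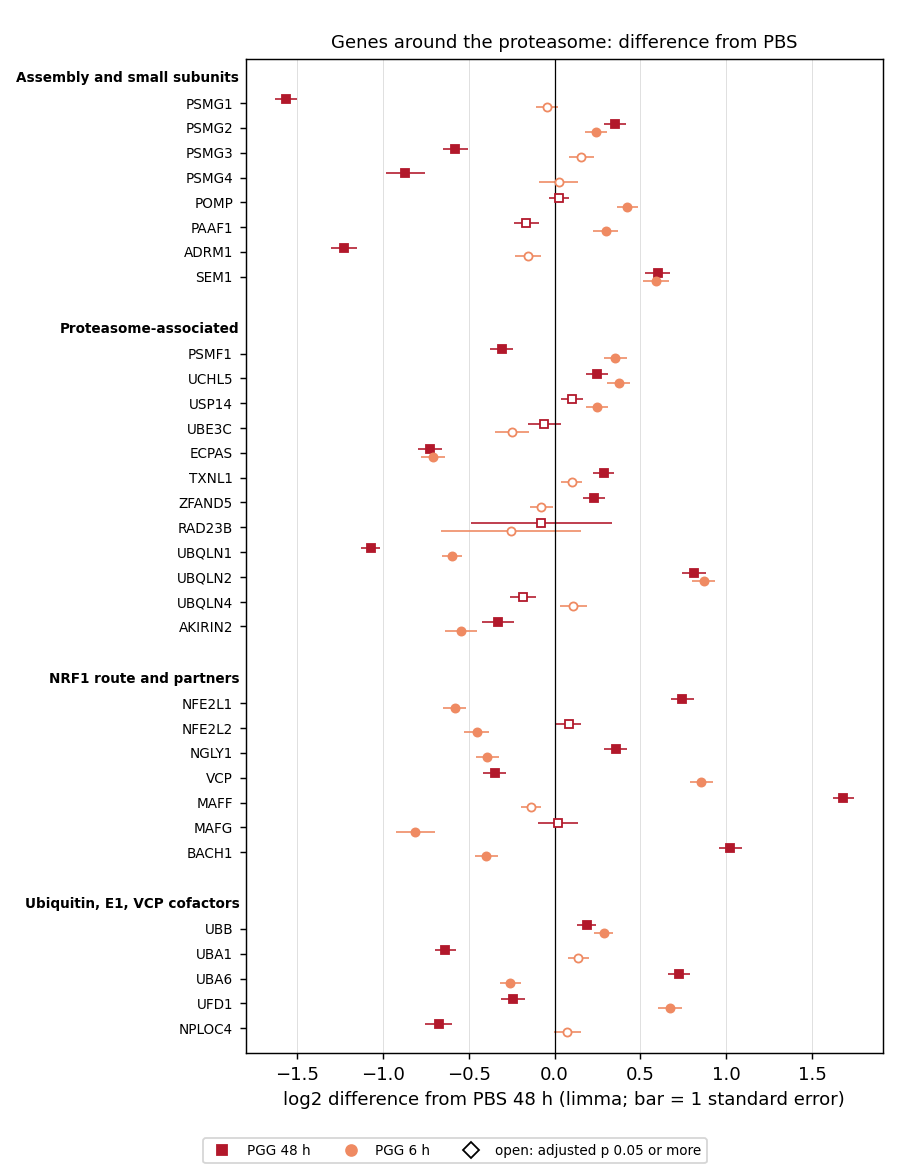
Log2 difference from PBS at 48 hours (squares) and 6 hours (circles) of PGG for genes listed beside the members, in 4 groups, with bars of 1 standard error from limma and open marks for an adjusted p of 0.05 or more. PSMG1 at -1.56 and ADRM1 at -1.22 lie furthest left and MAFF at 1.68 furthest right at 48 hours.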

How the data were processed

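RNA of Huh7 cells was hybridized by the authors to 9 Affymetrix arrays, 3 for PGG at 48 hours, 3 for PGG at 6 hours and 3 for PBS. The deposited values are log2 signals per probe set, which the authors made by RMA in Affymetrix Expression Console (version not given in the sources used here). RMA quantile-normalizes the arrays, so a shift shared by most genes would not show. Arrays give no read depth, and their number limits the precision. Groups came from the sample titles, and p-values measure the spread between arrays.

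From these values, group differences were fitted with limma (version 3.58.1, R 4.3.3; lmFit and eBayes, all 9 arrays in 1 fit, a mean for each group), with Benjamini-Hochberg adjustment over 19775 genes (1 probe set a gene, by highest mean) and separately over 54613 probe sets, after 62 control probe sets were left out. The fit was first checked on an artificial table with known changes, in which far fewer genes changed than were called in the data. It called 7 of 50 log2 changes of 0.25, 35 of 50 of 0.5, 50 of 50 of 1 and 49 of 50 of 2. Of 19575 unchanged genes 3 were called. Small changes were thus often missed.

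Values on every array are given for the catalytic subunits, the activators and, per comparison, the 4 largest rises and 4 largest falls past an adjusted p of 0.05. Beside the members, up to 3 rises and 3 falls a list and comparison are named. PSMG1 to PSMG4, POMP, NFE2L1 and USP14 were named in any case. The members, gene lists and tests were chosen with earlier results of these data known. The alternatives were other ways to choose a probe set, scaling, a filter on dim genes, other variance models, a replicate block, the methods' t-test, leaving out each array and, added after the data were seen, the study's cut-off of 1.5 read as a ratio. The scanner files and the protein, promoter and animal experiments were not analysed here.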

Additional observations from a re-analysis of the deposited data

Results flagged for a closer look

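For 31 of the 35 genes the level in PGG at 48 hours differed from that in PGG at 6 hours at an adjusted p under 0.05 from limma, 7 higher and 24 lower, beside 23.6% of all genes higher and 23.4% lower, or 36.6% and 37.4% of the genes at or above the median level. With no PBS array at 6 hours, a difference in the effect of PGG and a difference in time in culture cannot be told apart. The values below are log2 differences, PGG at 48 hours minus PGG at 6 hours.

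In the alpha ring the difference was -0.62 for PSMA1, -0.67 for PSMA2, -0.81 for PSMA3, -0.72 for PSMA4 and -0.83 for PSMA7. In the beta ring it was -0.21 for PSMB1, -0.44 for PSMB2, -0.67 for PSMB3, -0.37 for PSMB4, -0.48 for PSMB5, -0.95 for PSMB6 and -0.63 for PSMB7, while PSMB10 differed by 0.35. All called alpha subunits and all called beta subunits other than PSMB10 were thus lower at 48 hours.

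Among the ATPases, PSMC1 differed by -1.01, PSMC3 by -1.24 and PSMC6 by -0.49, and PSMC4 by 0.19. Among the other 19S subunits the difference was -1.41 for PSMD1, -1.04 for PSMD2, -0.60 for PSMD3, -0.32 for PSMD4, -0.85 for PSMD6, -1.27 for PSMD11 and -0.82 for PSMD14, and PSMD8 was the exception at 0.19. PSMC4 and PSMD8 had small differences whose calls were lost without replicate 1 of PGG at 6 hours (adjusted p = 0.1 and 0.053 from limma).

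Of the chaperones, PSMD5 differed by 0.30 and PSMD9 by 0.52, and PSMD10 by -0.29. Of the activators, PSME1 differed by 0.47 and PSME4 by 0.30, and PSME3 by -1.93, the largest difference of any member. The rises of PSMD5 (0.08, adjusted p = 0.27), PSMD9 (0.083, adjusted p = 0.34) and PSME4 (0.18, adjusted p = 0.06) did not pass in limma with the mean of all probe sets of the gene.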

How the results depend on the processing

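Fits without 1 array gave 6 to 8 genes higher and 18 to 18 lower at 48 hours against PBS (median -0.26 to -0.21), 15 to 18 higher and 2 to 2 lower at 6 hours against PBS (median 0.17 to 0.22), and 4 to 7 higher and 24 to 25 lower at 48 hours against 6 hours (median -0.51 to -0.47). The 4 came without replicate 1 of PGG at 6 hours. With the mean of all probe sets of a gene, 4 were higher at 48 hours than at 6 hours, with PSMD5, PSMD9 and PSME4 lost, and the median was -0.27 at 48 hours and 0.18 at 6 hours. Without _x_at and _s_at probe sets, where another existed, it was -0.32 at 48 hours and -0.62 between the times. After a further quantile normalization it was -0.28 at 48 hours, 0.19 at 6 hours and -0.51 between the times. Each array centred on its median gave -0.20 at 48 hours, dim genes left out gave -0.27 at 48 hours and -0.54 between the times, and array weights gave -0.50 between the times. No median changed sign.

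Directions turned with the probe set. With the mean of all probe sets PSMC2 was -0.08, PSMD6 0.053 and PSME4 -0.29 at 48 hours and PSMB7 0.20 at 6 hours. Without _x_at and _s_at probe sets PSMC2 was -0.39 at 48 hours and PSMB1 0.43 between the times. The value of PSMB1 came from a dim probe set, at 4.24 to 4.66 in PGG at 48 hours, and its bright probe sets differed by -0.21 and -0.26. With the replicate block 7 genes were higher and 18 lower at 48 hours, 16 and 2 at 6 hours, and 7 and 24 between the times. Same-numbered arrays of different groups did not deviate together (correlations of -0.09 to 0.04), so the numbers were not taken to pair arrays. The methods' t-test left 24, 21 and 29 genes after Benjamini-Hochberg at 48 hours, at 6 hours and between the times. PSMB10 and PSME4 were not among them at 48 hours or between the times. At the methods' threshold PSME3 alone passed at 48 hours and between the times, and no member passed at 6 hours. Precision is limited by 3 arrays a group, and for probe sets near the bottom of the scale, such as those of PSMA8, by their low signal.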
